A study of Mus musculus with 30 samples.

Results

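The comparison covers pool 3 against pool 2 of the polysome gradients of undifferentiated mouse embryonic stem cells (ESC). These were R1 cells, an established mouse line, kept with LIF, the cytokine that maintains the undifferentiated state. All cultures, those of the embryoid bodies (EB) used further on included, were exposed to 150 ug/ml cycloheximide for 15 min before harvest, which holds ribosomes on their mRNAs. Cytoplasmic lysate was run on a sucrose gradient, 12 fractions were combined into 4 pools, and 2.5 ug of RNA from a pool was labelled for 1 mouse expression array. Members were the arrays labelled as undifferentiated ESC, pool 2 or pool 3: 6 of the 30 arrays of the series, 3 for each pool, from 3 cultures that each gave both pools. All 45037 probe sets that are not controls were normalized, and 27022 of them were tested after the 40% with the lowest mean had been dropped. The tested probe sets represented 13436 genes, with 1 probe set per gene. Whether pool 1 came from the top or the bottom of the gradient is not in the labels, so pools are called by number and no pool is called heavier or lighter.

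In a polysome gradient an mRNA travels according to the ribosomes bound to it, and RNAs without ribosomes stay near the top. How many ribosomes an mRNA holds depends on how often translation starts and on how long its coding sequence is, so an mRNA for a very small protein cannot carry many. ESC are known for modest overall translation, for high proteasome activity and for relying on glycolysis more than on respiration. A difference between pools describes where the RNA of a gene lies in the gradient, not how much of it a cell holds.

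The arrays of pool 3 were dimmer than those of pool 2 on the deposited scale. Mean signal in cultures 1, 2 and 3 was 300.8, 186 and 323 in pool 2 and 205, 107 and 161 in pool 3. The ratio of pool 3 to pool 2 was 0.581 (log2 difference −0.78 ± 0.22, SD, n = 3; exact two-sided sign-flip permutation p = 0.25, the smallest p that 3 pairs allow). Between 30.0% and 36.0% of probe sets in pool 2 and between 38.3% and 46.4% in pool 3 lay at the lowest deposited value of their array. The 18 hybridisation controls, which are added with the labelled RNA, were lower in pool 3 of every culture, by −0.81, −0.75 and −1.62 (log2), while 15 spike-in controls differed by 0.01, −0.02 and 0.19. The ratio of 3′ to 5′ Actb signal, a sign of RNA or labelling length, was 3.07, 3.91 and 5.31 (log2) in pool 2 and 1.69, 3.59 and 2.79 in pool 3, lower in pool 3 of every culture, and that of Gapdh was lower too (exact permutation p = 0.25 for each). That of the dap control differed by 0.10, 0.34 and −0.90 in cultures 1, 2 and 3 (exact permutation p = 1). The part of signal, controls and 3′ to 5′ ratio in the differences below was not tested. All 11 ESC markers, Pou5f1, Sox2 and Nanog among them, lay above the floor on all 6 arrays, with 2007 to 5276 signal units per gene, against 12.8 to 34.6 for 7 fibroblast markers, at most 27.6 for 8 endoderm markers and 14.1 to 38.4 for the 7 of 9 mesoderm and neural markers on the array. In lysates of whole cultures, fewer cells of a type and less RNA per cell cannot be told apart.

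Differences are therefore given first relative to all probe sets, that is after quantile normalization, which gives the 6 arrays 1 distribution, as log2(signal + 32) in pool 3 minus pool 2 of the same culture. "Higher" and "lower" below mean called by limma's paired test with a Benjamini-Hochberg adjusted p under 0.05. Of the 27022 probe sets, 773 (2.86%) were higher and 954 (3.53%) lower in pool 3. With 1 probe set per gene, 463 of 13436 genes (3.45%) were higher and 597 (4.44%) lower. Counts of list members below are to be read beside these shares. Called genes were also brighter, with a median log2 level of 8.41 (higher) and 8.50 (lower) against 6.56 for genes not called. The lists were not compared with genes of similar level. Centring each array on its median in place of quantile normalization gave 468 higher and 2362 lower probe sets, so that 16.5% of the calls were higher in place of 44.8%. On the deposited scale, where the median of all tested probe sets was −0.31, 62 genes (0.461%) were higher and 4051 (30.2%) lower. No probe set was called without culture 3, without the offset of 32 or without the filter on low values. An unadjusted p of 0.05 was passed there by 4456, 4524 and 5976 probe sets. All 1727 called probe sets kept their sign, but they were called on these same arrays, which all but ensures it.

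The proteasome, the barrel that degrades ubiquitin-tagged proteins, stood most toward pool 3 of the 28 gene lists by its median. All 32 listed subunits were tested, all 32 differences were above 0, and 17 were higher and none lower. The median difference was 0.62, at 0.65, 0.74 and 0.64 in cultures 1, 2 and 3, against −0.00 over all genes tested. It was 0.23 under median centring and −0.04 on the deposited scale, where 5 subunits were called higher and 4 lower. On that scale 0.461% of all genes were higher and 30.2% lower. Psmb5, the subunit with the chymotrypsin-like active site, had log2 levels of 10.02, 10.02 and 10.29 in pool 2 and 11.72, 11.66 and 11.92 in pool 3. The pools did not overlap, and the difference of 1.66 ± 0.14 (SE, n = 3; adjusted p = 0.00327, limma) was the highest of all genes tested. Psmb7, which carries the trypsin-like site, ran from 9.98 to 10.51 in pool 2 and lay at 11.41 or above in pool 3 (1.53 ± 0.15).

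The calls covered all parts of the complex. Sem1, a small protein of the cap that stands in the list of very small proteins instead, was lower (−0.82). In the core particle, 4 of 7 alpha subunits and 4 of 7 beta subunits were higher. In the regulatory cap, which unfolds substrates, 2 of 6 ATPases and 7 of 12 other subunits were higher. The ATPase Psmc5 had levels of 8.81, 9.02 and 9.44 in pool 2 and 10.39, 10.07 and 10.52 in pool 3 (1.24 ± 0.16, adjusted p = 0.00535, limma). The alpha subunit Psma6 had the lowest difference of the list, 0.09.

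**Figure D1:**
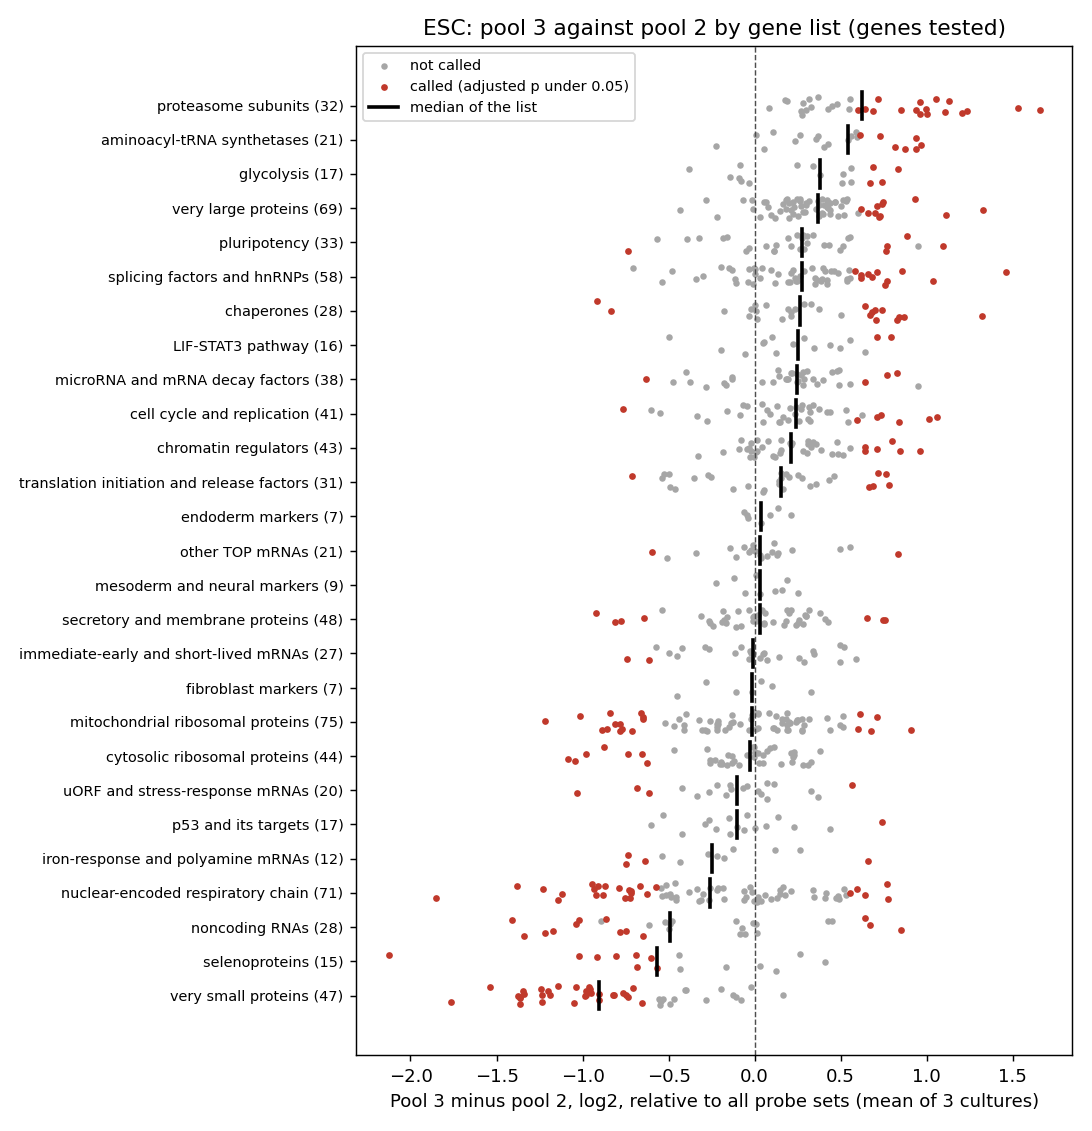
Each point is 1 tested gene of a list, placed on the x axis by its log2 difference of pool 3 minus pool 2 relative to all probe sets (mean of 3 cultures); red points were called, the black bar is the median of the list, and the number of genes tested stands in parentheses (vertical scatter within a row has no meaning). Shown are the lists with at least 7 tested genes; of these the proteasome (median 0.62) lies at the top and very small proteins (median −0.90) at the bottom.

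Aminoacyl-tRNA synthetases, which load tRNAs with amino acids, also lay toward pool 3. Of 40 listed members, 21 were tested, 7 were higher and none lower, and 20 had differences above 0 (median 0.54; 0.48, 0.60 and 0.44 by culture; 0.16 under median centring). Aars, the alanyl-tRNA synthetase, had log2 levels of 9.87, 9.97 and 10.19 in pool 2 and 10.80, 11.24 and 10.80 in pool 3 (0.94 ± 0.17, adjusted p = 0.0136, limma). Vars, the valyl enzyme, and Aimp1, a scaffold of the multi-synthetase complex, differed by 0.94 ± 0.14 and 0.97 ± 0.15. The other members called were Cars, Rars, Mars1 and Aimp2, at 0.61 to 0.87.

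Chaperones were divided by subunit. Of 28 tested, 10 were higher and 2 lower, with a median of 0.26 that turned to −0.21 under median centring. The higher members were 4 subunits of the CCT ring that folds actin and tubulin (Cct2, Cct5, Cct7 and Cct8), the Hsp70-type and J-domain proteins Hspa4, Hspa14 and Dnaja1, and the Hsp90 co-chaperones Fkbp4, Cdc37 and Ahsa1. Fkbp4 had levels of 9.08, 9.64 and 9.82 in pool 2 and 10.39, 11.09 and 11.04 in pool 3 (1.32 ± 0.15, adjusted p = 0.00327, limma); its dimmer probe sets had differences of 0.10 and −0.00. The 2 lower members were both prefoldin subunits, Pfdn1 (−0.83) and Pfdn4 (−0.92 ± 0.15), which hand unfolded chains to CCT.

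Glycolysis enzymes had a median of 0.38 over 17 tested, which was 0.00 under median centring, with 4 higher and none lower. Those were Pfkl, a phosphofructokinase subunit, at 0.84 ± 0.15, Pkm, the muscle-type pyruvate kinase, at 0.74 ± 0.14, and the lactate dehydrogenases Ldhb (0.69 ± 0.17) and Ldha (0.67). On the deposited scale none of the 17 was higher and 4 were lower, where 0.461% and 30.2% of all genes were, and their median was −0.27 against −0.33 over all genes.

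mRNAs of very large proteins mostly lay above 0. Of 78 listed, 69 were tested, 63 had positive differences, and 11 were higher and none lower (median 0.37; 0.35, 0.36 and 0.30 by culture; 0.21 under median centring). Mycbp2, a giant ubiquitin ligase, had levels of 6.54, 6.51 and 6.29 in pool 2 and 7.73, 7.92 and 7.67 in pool 3 (1.33 ± 0.15, adjusted p = 0.00327, limma). The histone methyltransferases Kmt2d and Kmt2a differed by 1.12 ± 0.16 and 0.93 ± 0.16. The remaining higher members ranged from 0.62 for Acaca, which makes malonyl-CoA, to 0.75 for Ubr4, another ubiquitin ligase. The lowest difference was that of Ranbp2, a nuclear pore protein, at −0.43, which was not called.

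Lists of nuclear regulators lay moderately toward pool 3 relative to all probe sets, and most of their medians changed sign under median centring. Splicing factors and hnRNPs had 11 of 58 tested higher and none lower, with a median of 0.27 and of −0.15 under median centring. The Sm and Lsm proteins Snrpf (−0.90), Snrpg (−0.71) and Lsm3 (−1.36) were lower but stand in the list of very small proteins. Snrnp70, a protein of the U1 particle, had levels of 7.67, 7.44 and 8.21 in pool 2 and 9.18, 9.14 and 9.39 in pool 3 (1.46 ± 0.16, adjusted p = 0.00327, limma). Srrm2, a scaffold of nuclear speckles, differed by 1.04 ± 0.19, while its dimmer probe sets had −0.27 and 0.00 and were not called. Chromatin regulators had 6 of 43 higher and none lower, with a median of 0.21 and of −0.04 under median centring. They included Dnmt3l, a partner of the de novo DNA methyltransferases (0.96 ± 0.15), Smarca4, the ATPase of the BAF complex (0.85 ± 0.15), and Wdr5, a core subunit of H3K4 methyltransferases (0.80 ± 0.16). A dimmer Wdr5 probe set had 0.44 and was not called.

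Cell cycle and replication genes had 6 of 41 higher and 1 lower (median 0.24, −0.06 under median centring). The cyclin Ccnd2, the sliding clamp Pcna and the kinase Cdk1 differed by 1.06 ± 0.16, 1.01 ± 0.16 and 0.84 ± 0.16. Ccnd2 had dimmer probe sets that were called and others, at 0.22 and 0.25, that were not. The lower member was Cenpa, the centromeric histone H3 variant, at −0.76. Among 38 factors of microRNA action and mRNA decay, 3 were higher and 1 lower, where 3.45% and 4.44% of all genes were. The median was 0.25, and 0.01 under median centring. Ago1, the kinase Smg1 of nonsense-mediated decay, and Tnrc6b, a partner of Argonaute proteins, were the higher ones (0.83 ± 0.15, 0.77 ± 0.15 and 0.64 ± 0.15), and the deadenylase Cnot7 was lower (−0.63). Dimmer probe sets of Smg1 (0.26 and 0.14) and Tnrc6b (0.63 and −0.09) were not called.

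Pluripotency genes differed one by one. Of 33 tested, 25 had differences above 0, 4 were higher and 1 was lower; the median of 0.28 became −0.09 under median centring. Klf5, a Krüppel-like factor of the self-renewal network, had levels of 10.23, 10.23 and 10.25 in pool 2 and 11.29, 11.28 and 11.42 in pool 3 (1.10 ± 0.14, adjusted p = 0.00533, limma). Tfcp2l1, a transcription factor downstream of LIF, Utf1, a chromatin-bound ESC factor, and Sall4, a zinc finger factor, followed at 0.89 ± 0.15, 0.77 ± 0.15 and 0.77. Dppa3, a small maternal-effect protein, was lower at −0.73.

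The 3 core factors were not called. Pou5f1 had levels of 11.80, 11.89 and 11.51 in pool 2 and 12.31, 12.04 and 12.15 in pool 3, which did not overlap (0.43 ± 0.16, adjusted p = 0.15, limma). Sox2 overlapped between pools (0.26 ± 0.16, adjusted p = 0.406), and Nanog, at 10.91, 11.02 and 10.41 in pool 2 and 11.04 to 11.11 in pool 3, did not (0.30 ± 0.17, adjusted p = 0.345). In the LIF-STAT3 pathway, 2 of 16 genes were higher and none lower (median 0.25, −0.05 under median centring). These were the kinase Pim3 (0.79 ± 0.16) and Socs3, the feedback inhibitor of the receptor (0.71 ± 0.16).

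At the other end, mRNAs of very small proteins lay toward pool 2. Of 64 listed, 47 were tested, 46 had negative differences, and 31 were lower and none higher. The median was −0.90 (−0.84, −0.76 and −1.02 by culture), −1.30 under median centring and −1.57 on the deposited scale. There 44 of the 47 were lower, against 30.2% of all genes. Atp5md, a small subunit of ATP synthase, had levels of 10.54, 11.07 and 11.15 in pool 2 and 9.02, 9.27 and 9.17 in pool 3 (−1.76 ± 0.15, adjusted p = 0.00327, limma). Atox1, a copper chaperone, was even across cultures in pool 2, at 11.41, 11.39 and 11.38, and lay at 9.79, 10.08 and 9.69 in pool 3 (−1.54 ± 0.15). Ost4, a subunit of oligosaccharyltransferase, differed by −1.37 ± 0.15.

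The lower members of that list came from unrelated processes. They included the small Tim chaperones of the mitochondrial intermembrane space (Timm8b −1.37, Timm13 −1.19, Timm8a1 −0.99, Timm9 −0.76), the metallothioneins Mt1 (−1.20) and Mt2 (−0.90), and the Sm and Lsm proteins Snrpf (−0.90), Snrpg (−0.71) and Lsm3 (−1.36). Sem1, a small protein of the proteasome cap, was lower at −0.82, while none of the 32 subunits in the proteasome list was. Dpm3, a subunit of dolichol-phosphate mannose synthase, was the 1 member above 0, at 0.16, and was not called.

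Within the respiratory chain, subunits of 1 complex lay on both sides. Of 71 nuclear-encoded genes tested, 20 were lower and 5 higher, with a median of −0.26 (−0.25, −0.19 and −0.34 by culture; −0.68 under median centring). Of 15 ATP synthase genes tested, 3 were higher and 5 lower, the rest were not called, and the median was 0.04. Atp5a1, Atp5b and Atp5c1, of the part that holds the catalytic sites, were higher at 0.59, 0.78 and 0.64. Atp5e, the smallest subunit of that part, had levels of 11.21, 11.28 and 11.71 in pool 2 and 9.56, 9.45 and 9.66 in pool 3 (−1.85 ± 0.15, adjusted p = 0.00327, limma). The membrane-sector subunits Atp5g1, Atp5j2, Atp5k and Atp5l were lower too, at −0.62, −0.73, −1.12 and −0.91. These subunits were picked out after their values had been seen.

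In complex I nearly all calls were lower. Complexes were told apart by gene symbol only, so Ndufa4 is counted here by its name. Of 33 Nduf genes tested, 8 were lower, all of them Ndufa, Ndufb or Ndufc genes, with Ndufc1 at −1.23 ± 0.15. Only the core subunit Ndufs3 was higher, at 0.56 and at the edge of the threshold (adjusted p = 0.05 as rounded, limma). Over all genes tested, 4.44% were lower and 3.45% higher. In complex III, 4 of 9 were lower, with Uqcr10 at −1.38 ± 0.16, and in complex IV 3 of 9 were lower, with Cox8a at −0.79. Among 4 complex II genes, Sdhb, the iron-sulphur subunit, was higher at 0.77 and none was lower. ND5, a complex I subunit made inside mitochondria, was the only one of 28 listed mitochondrially encoded RNAs with a probe set of 1 symbol. Its levels were 12.32, 12.23 and 11.26 in pool 2 and 10.30, 9.61 and 9.70 in pool 3 (−2.07 ± 0.20, adjusted p = 0.00327, limma).

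Mitochondrial ribosomal proteins were centred on 0 (median −0.02 over 75 tested, −0.34 under median centring, 0.01 without culture 3), with 13 lower and 5 higher. Mrps21 (−1.22 ± 0.21) and Mrpl42 (−1.02 ± 0.14) were the lowest, and Mrps28 (0.91 ± 0.15) the highest. The other members higher in pool 3 were Mrpl22, Mrps35, Mrpl16 and Mrpl24, at 0.60 to 0.71.

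Cytosolic ribosomal protein mRNAs are the best known TOP mRNAs, which begin with a C and a run of pyrimidines at the 5′ end that ties their translation to mTOR. Of 80 listed, 45 had a probe set with 1 symbol and 44 were tested; 7 were lower and none higher. Their median was −0.03 (−0.11, −0.02 and −0.05 by culture), but −0.80 under median centring and −1.07 on the deposited scale. On the deposited scale 43 of 44 were lower, against 30.2% of all genes, and the median of all genes was −0.33. Rps25 had levels of 9.69, 9.96 and 9.96 in pool 2 and 8.54, 9.13 and 8.69 in pool 3 (−1.08 ± 0.15, adjusted p = 0.00635, limma). Rps6, the substrate of S6 kinase, had levels of 8.50, 8.50 and 8.67 in pool 2 and 7.71, 7.32 and 7.71 in pool 3 (−0.98 ± 0.15). Rps27l, a paralogue of Rps27, differed by −1.04 ± 0.14. Ribosomal protein genes have many near-identical copies, so which copy a probe set reads is uncertain. Pool 2 means of the 7 lower genes ran from 7.14 (Rps27) to 12.62 (Rps27l), with Rpl39 at 7.56 and Rps6 at 8.56. Whether the dim probe sets read the main mRNA of their gene was not tested.

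Of the 3 ribosomal protein genes with the lowest differences, 2 have an annotated start with such a pyrimidine run, Rps27l at 1 of its 2 starts. The lines below are RefSeq sequences of the gene's strand (build GRCm38.p6), from 5 bases before the annotated start to 25 from it on. Capitals mark a C within 2 bases of the start with the C or T bases that follow it, where at least 4 do.
Rps6, chr4:86857343-86857372, minus strand: cgggCCTCTTTTTCgtgacgcctcccaggc
Rps27l, chr9:66946081-66946110, plus strand: ccgccgCCTCTatcccggaagttgctgagg
Rps25, chr9:44407709-44407738, plus strand: atcttagcgaggctgctgtggtctacacga
A run of that kind, searched on the gene's strand only, was found at 2942 of the 32851 annotated starts in the table (8.96%). It was found in 15 of the 39 tested ribosomal protein genes with a sequence (38.5%), and in 1292 of all 10823 tested genes with one (11.9%). The median difference of the 15 was −0.04, and that of the other ribosomal protein genes was −0.05. Over all genes tested the medians with and without the run were 0.00 and 0.00. Annotated starts can be off by some bases from the true 5′ end.

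Other mRNAs of the translation machinery differed by list. Of 21 other TOP mRNAs tested, 1 was higher and 1 lower, where 3.45% and 4.44% of all genes were. Eef1d, a subunit of the elongation factor 1 complex, was higher (0.84 ± 0.15). Another Eef1d probe set of similar level had 0.40 and was not called. Cox7a2l, a supercomplex assembly factor, was lower (−0.60 ± 0.15). The median of the list was 0.03, and −0.57 under median centring. Eef1a1, the elongation factor that brings tRNAs to the ribosome, had levels of 13.97, 14.02 and 13.96 in pool 2 and 14.06, 14.06 and 14.14 in pool 3 (0.10 ± 0.14, adjusted p = 0.732, limma), and turned to −0.69 (adjusted p = 0.0122) under median centring. Of 31 initiation and release factors, 5 were higher and 1 lower, where 3.45% and 4.44% of all genes were, with a median of 0.15 that turned to −0.33 under median centring. Eif2b4, a subunit of the eIF2 exchange factor, Eif6, which keeps ribosomal subunits apart, and the helicase Eif4a1 differed by 0.78 ± 0.20, 0.76 ± 0.15 and 0.72 ± 0.16; another bright Eif4a1 probe set had 0.16 and was not called. The cap-binding inhibitor Eif4ebp2 was lower at −0.71.

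Selenoproteins carry selenocysteine, which is inserted at a UGA codon. Of 22 listed, 15 were tested, 8 were lower and none higher (median −0.57; −0.52, −0.52 and −0.62 by culture; −0.79 under median centring). Selenow had levels of 10.80, 10.57 and 11.07 in pool 2 and 9.10, 8.46 and 8.50 in pool 3. Its difference of −2.13 ± 0.18 (adjusted p = 0.00327, limma) was the lowest of all genes tested. Selenoh (−1.02 ± 0.16) and the glutathione peroxidase Gpx1 (−0.91 ± 0.15) followed. The thioredoxin reductase Txnrd1 had the highest difference, 0.41, which was not called.

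Noncoding RNAs lay toward pool 2 as a list, with exceptions. Of 28 tested, 10 were lower and 3 higher (median −0.49; −0.23, −0.44 and −0.52 by culture; −0.72 under median centring). Those lower were led by Neat1, which builds nuclear paraspeckles, with levels of 8.54, 8.58 and 8.35 in pool 2 and 7.34, 6.80 and 7.11 in pool 3 (−1.41 ± 0.17, adjusted p = 0.00389, limma); a dimmer Neat1 probe set had a difference of 0.04. Hosts of small nucleolar RNAs made up most of the others. Snhg8 and Snhg6 differed by −1.34 ± 0.18 and −1.22 ± 0.15, and Zfas1, Snhg3, Snhg12, Snhg1, Snhg4 and Gas5 by −0.74 to −1.17. The 3 higher ones were Xist, Kcnq1ot1 and Meg3, at 0.85, 0.67 and 0.64. Xist (mean 6.36 in pool 2 and 7.21 in pool 3) and Kcnq1ot1 (5.74 and 6.42) were dim, so these calls rest on low signal. Meg3 was brighter (9.22 and 9.87). Malat1, another nuclear RNA, varied widely between cultures: pool 2 gave 11.95, 10.98 and 11.24, and pool 3 gave 12.29, 8.71 and 10.48. It was not called (−0.89 ± 0.37, adjusted p = 0.207, limma). Over all genes, 35 of 519 with the RefSeq type lncRNA were lower (6.74%) and 3 higher (0.578%), and of 12754 protein-coding genes 553 were lower (4.34%) and 459 higher (3.60%).

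The uORF and stress-response list holds mRNAs known for short reading frames upstream of the coding sequence, which hold back its translation, and related stress genes. Of 20 tested, 3 were lower and 1 higher (median −0.10, −0.34 under median centring). The stress transcription factors Atf5 and Ddit3 differed by −1.03 ± 0.20 and −0.61 ± 0.15, Slc35a4 by −0.68 ± 0.16, and the deubiquitinase Uchl1 was higher at 0.56. Atf4, the best known of them, had levels of 10.98, 10.94 and 10.93 in pool 2 and 10.61, 10.58 and 10.40 in pool 3, which did not overlap, and was not called (−0.42 ± 0.14, adjusted p = 0.126, limma). Among 12 iron-response and polyamine mRNAs, 3 were lower and 1 higher (median −0.25, −0.41 under median centring). Fth1, the ferritin heavy chain with an iron-response element at its 5′ end, differed by −0.73 ± 0.15, Sat1, which acetylates spermidine, by −0.75 ± 0.16, and Oaz2, an antizyme, by −0.63. Srm, the spermidine synthase, was higher at 0.66 ± 0.15.

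Secretory and membrane proteins, whose mRNAs are translated at the endoplasmic reticulum, had 3 of 48 higher and 4 lower (median 0.03, −0.20 under median centring). Over all genes tested, 3.45% were higher and 4.44% lower. Syndecan Sdc4, integrin Itgav and Stt3a, a catalytic subunit of oligosaccharyltransferase, differed by −0.92 ± 0.23, −0.81 ± 0.15 and −0.78 ± 0.16, and Ssr4 by −0.65. Sdc4 ran from −0.23 to −1.65 between cultures. Its dimmer probe set (−0.78) and those of Stt3a (−0.30 and −0.19) were not called. The tetraspanins Cd9 and Cd81 and fibronectin Fn1 were higher at 0.76, 0.74 and 0.65. Of 17 p53 genes, Zmat3 was higher (0.74 ± 0.15) and none was lower at its brightest probe set (median −0.10, and 0.00 without culture 2). Ccng1, a cyclin-like p53 target, had −0.42 ± 0.15 there and was not called (adjusted p = 0.133, limma), while a second probe set was called lower (−0.60, adjusted p = 0.0433). Of 27 immediate-early and short-lived mRNAs, Id2 (−0.74 ± 0.15) and Btg1 (−0.61 ± 0.15), inhibitors of differentiation and of proliferation, were lower and none was higher (median −0.01, and 0.14 without culture 2). The marker lists here are longer than the marker sets given in signal units above. None of the 7 fibroblast, 7 endoderm and 9 mesoderm and neural markers tested was called at its brightest probe set. Their highest-signal members were Vim (0.04 ± 0.15) and Acta2 (−0.45 ± 0.15), Gata6 (0.09 ± 0.14) and Dab2 (0.03 ± 0.17), and Tubb3 (0.25 ± 0.15) and Eomes (0.12 ± 0.19). The probe sets of Vim, an intermediate filament gene, disagreed: a second of similar level was called higher (0.71, adjusted p = 0.0214, limma), and the other had 0.43 and was not called. Actb, the housekeeping actin, had levels of 13.61, 12.87 and 12.54 in pool 2 and 13.80, 13.19 and 13.87 in pool 3, which overlapped (0.61 ± 0.22, adjusted p = 0.14, limma). A dimmer Actb probe set had the opposite sign, −0.46, and was not called either (adjusted p = 0.133, limma).

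The extremes of the whole table mixed these groups with genes outside the lists. Besides the genes already given, the 10 highest held Rps4l (1.41 ± 0.14), Exosc7, a subunit of the RNA exosome (1.41 ± 0.15), Ankrd17 (1.40 ± 0.15), the small heat-shock protein Hspb1 (1.30 ± 0.14) and Agap1, which acts on Arf GTPases (1.29 ± 0.19). Rps4l is annotated as a transcribed pseudogene and resembles a ribosomal protein gene, so its source is uncertain. Ankrd17 was even across cultures, with levels of 8.11, 8.16 and 8.14 in pool 2 against 9.64, 9.50 and 9.47 in pool 3. Its 3 other probe sets had smaller differences, 0.39, 0.26 and 0.12, and none was called. Dimmer probe sets of Agap1, at 0.43 and 0.54, were not called either. The 10 lowest held Tmem167 (−1.57 ± 0.16), Cenpw, a centromere protein (−1.54 ± 0.15), Lamtor5, a subunit of the Ragulator at lysosomes (−1.48 ± 0.15), 2500002B13Rik (−1.46 ± 0.15) and Brk1, a subunit of the actin-regulating WAVE complex (−1.45 ± 0.15). Tmem167 had 7 probe sets tested, of which a second was called, at −1.25. In all 20 genes the 3 values of a pool lay apart from the 3 of the other, which the rule for naming them required.

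**Figure D2:**
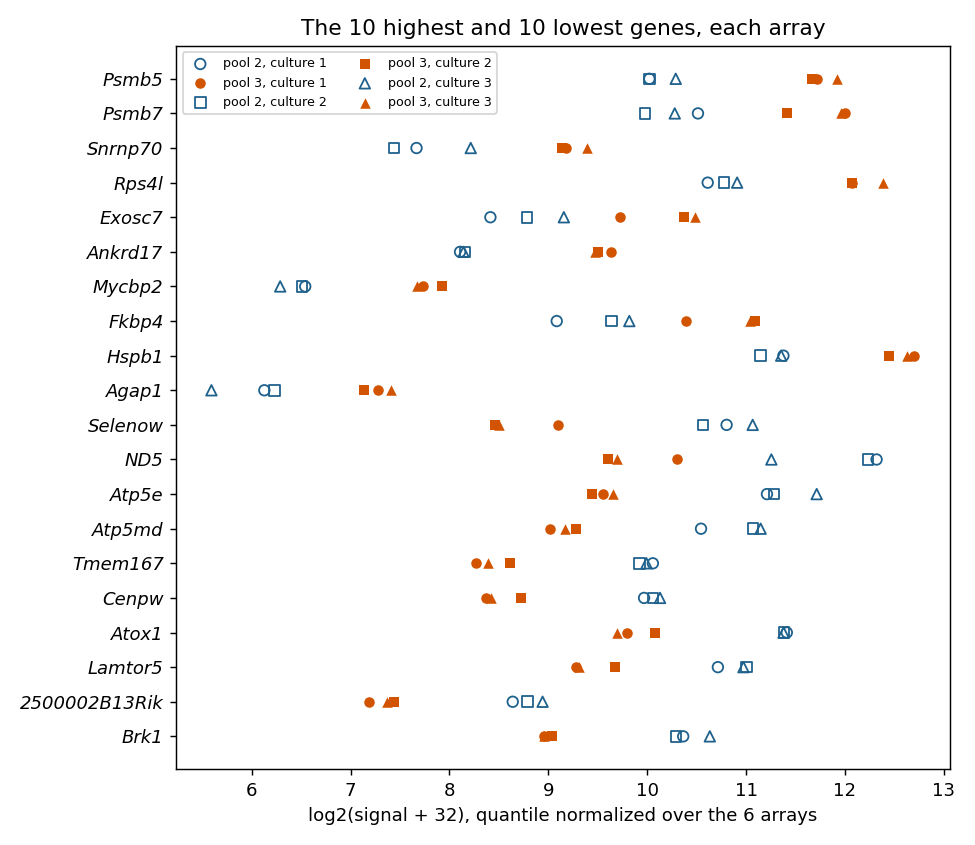
Log2(signal + 32) after quantile normalization (x axis) of the 10 genes with the highest and the 10 with the lowest called difference, 1 row per gene; open blue symbols are pool 2, filled orange symbols pool 3, and the shape gives the culture. Psmb5 runs from 10.02 to 10.29 in pool 2 and from 11.66 to 11.92 in pool 3, and Selenow from 10.57 to 11.07 and from 8.46 to 9.10.

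Pools 1 and 4 of the same gradients, whose arrays the test did not use, gave values for the same genes. Over the 463 genes higher in pool 3, the median of pool 4 minus pool 1 was 1.00, and 445 of them (96.1%) had more signal in pool 4. Over the 597 lower genes the median was −0.71, and 16 (2.68%) had more signal in pool 4, against 47.7% of the genes not called. Of the 463, 217 had their highest mean in pool 3, 234 in pool 4 and 12 in pool 1. Of the 597, 359 had it in pool 2 and 238 in pool 1. The call itself all but bars a higher gene from peaking in pool 2 and a lower gene from peaking in pool 3, so the absence of such genes carries no information. Of the 12376 genes not called, 3364, 3378, 2815 and 2819 had their highest mean in pools 1, 2, 3 and 4. The cultures are shared by all pools. Pool 4 minus pool 1 was taken after quantile normalization of the pool 1 and pool 4 arrays alone. The highest means, like the profiles below, are values relative to all probe sets of 15 ESC arrays.

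The lists had different profiles over the pools. Proteasome subunits were lowest in pool 1 (−0.63 ± 0.02, SD, n = 3, median over genes relative to each gene's mean of the 4 pools), reached 0.50 ± 0.03 in pool 3 and stood at 0.34 ± 0.05 in pool 4. Very large proteins were lowest in pool 2 (−0.30 ± 0.02) and highest in pool 4 (0.38 ± 0.03). Very small proteins peaked in pool 2 (0.51 ± 0.06) and lay at −0.32 ± 0.09 and −0.36 ± 0.08 in pools 3 and 4. Noncoding RNAs were highest in pool 1 (0.29 ± 0.11). Cytosolic ribosomal proteins stayed between −0.02 and 0.05 in all 4 pools, but these profiles are after quantile normalization. For pool 3 minus pool 2, their median was −0.80 under median centring and −1.07 on the deposited scale, where that of all genes was −0.33. An even spread of these mRNAs over the gradient can therefore not be read from the profile. Single genes were steeper at their brightest probe set. Ankrd17 went from 6.51 ± 0.22 in pool 1 to 9.85 ± 0.09 in pool 4, and ND5 from 13.7 ± 0.10 in pool 1 to 9.40 ± 0.36 in pool 3. Pou5f1 had its highest level in pool 3 (11.7 ± 0.14) and its lowest in pool 1 (10.6 ± 0.02), while Nanog was highest in pool 1 (11.01 ± 0.06).

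**Figure D3:**
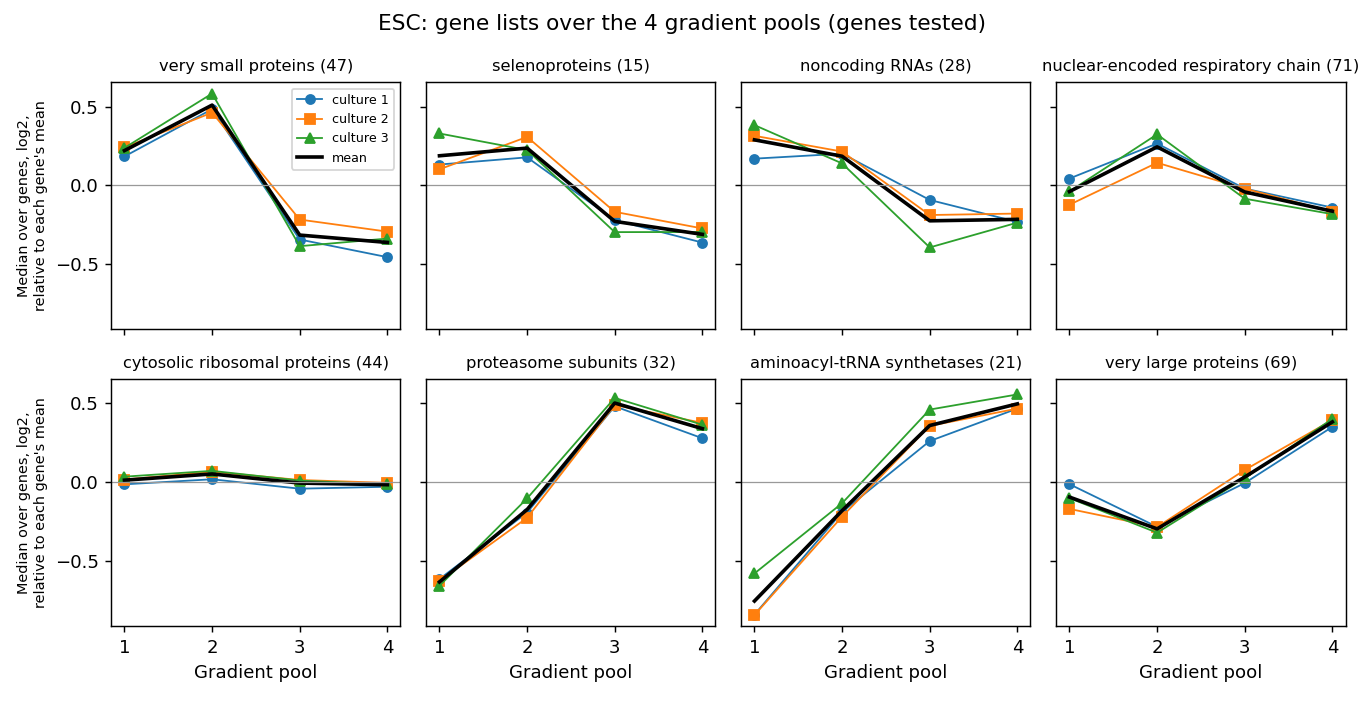
Median over the tested genes of 8 lists in pools 1 to 4 (x axis), as log2 relative to each gene's mean over the 4 pools (y axis); coloured lines are the 3 cultures and the black line their mean, with the number of genes in parentheses. Very small proteins have a mean of 0.51 in pool 2 and −0.32 in pool 3, and proteasome subunits −0.17 and 0.50.

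The same contrast in EB, aggregates of these cells grown without LIF for 5 days, came from 3 EB replicates and shared no array. Whether EB and ESC replicates of the same number began from the same culture is not stated. Across 13436 genes, the pool 3 minus pool 2 differences in ESC and EB correlated at r = 0.58 (Spearman 0.503); genes are not independent replicates, and all arrays share the platform and its probe sets. Of the genes higher in ESC, 445 of 463 (96.1%) were above 0 in EB, where 55.6% of all genes were, and of those lower in ESC 578 of 597 (96.8%) were below 0. A test of the difference between the states called no probe set and no gene higher or lower (0% in each direction; limma, 2772 probe sets and 1636 genes at an unadjusted p under 0.05). With a robust and trended spread 69 probe sets were higher in EB and 35 lower, and under median centring 3311 and 43.

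List medians were close for the proteasome (0.62 in ESC and 0.63 in EB) and for noncoding RNAs (−0.49 in both). Selenoproteins had −0.59 in ESC and −0.87 in EB, and aminoacyl-tRNA synthetases 0.54 and 0.21. LIF-STAT3 genes had 0.24 in ESC and 0.54 in EB, with Socs3 at 0.69 and 1.65 (difference 0.96 ± 0.41, adjusted p = 0.482, limma). Nanog had 0.30 in ESC and 0.94 in EB (difference 0.64 ± 0.25, adjusted p = 0.466), while Pou5f1 had 0.44 and 0.42. Aimp1 and Vars, called in ESC, had 0.09 and 0.18 in EB. Medians of 5 lists were below 0 in ESC and above 0 in EB: iron-response and polyamine mRNAs (−0.28 and 0.05), p53 genes (−0.10 and 0.14), uORF and stress-response mRNAs (−0.10 and 0.08), immediate-early mRNAs (−0.01 and 0.30) and fibroblast markers (−0.02 and 0.05). That of secretory and membrane proteins was 0.03 in ESC and −0.16 in EB. None of the differences named here between states was called.

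**Figure D4:**
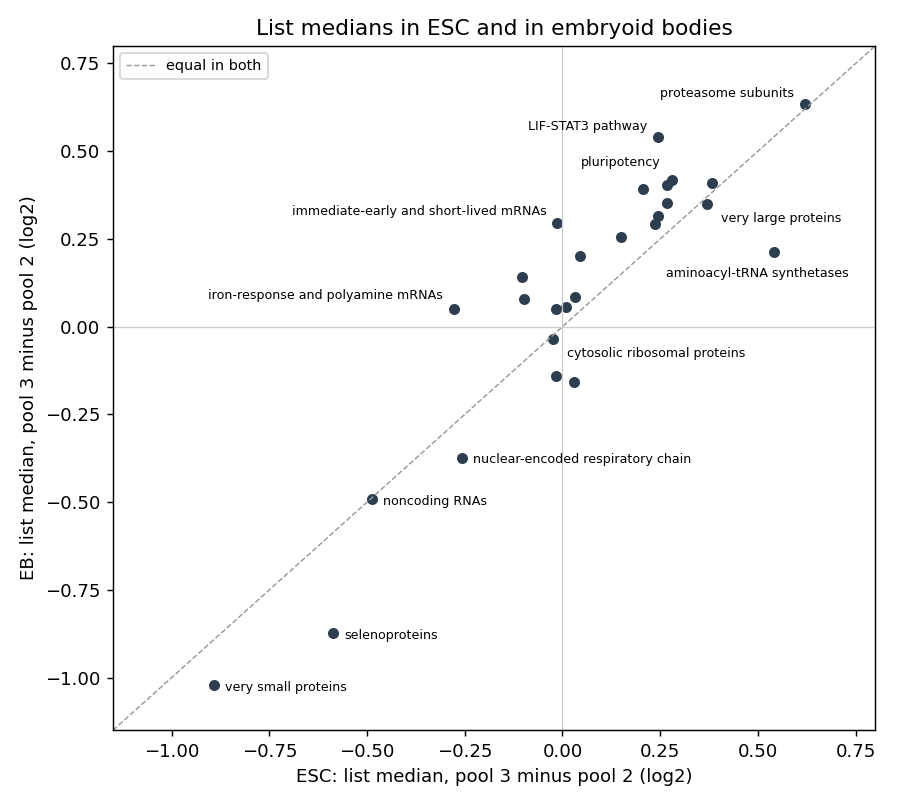
Median log2 difference of pool 3 minus pool 2 of each gene list in ESC (x axis) and in EB (y axis), with 12 arrays quantile normalized together; each point is 1 list of at least 7 tested genes, and the dashed line marks equal medians. Very small proteins lie at −0.89 and −1.02, proteasome subunits at 0.62 and 0.63.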

How the data were processed

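Values were log2 signals as deposited by the authors; MAS5 and affy appear in the submitters' processing notes with no version or role, and how the arrays were scaled is not given in the sources used here. From the values, 15 spike-in controls had a mean log2 value of 8.18 to 8.51 on each array, while 18 hybridisation controls ranged from 10.4 to 12.7. An offset of 32 was put on the linear signal before log2 was taken again. The 6 arrays were quantile normalized, the lowest 40% of probe sets were left out, and the 3 within-culture differences were fitted with limma 3.58.1 in R 4.3.3 (lmFit, eBayes, Benjamini-Hochberg). On the deposited scale all probe sets had the same SE, 0.200, so its p-values do not take a single gene's spread into account. The scripts were tested on simulated data.

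Pools were paired by the biological replicate number in the labels, as pools of 1 culture; deviations from the pool means of same-numbered arrays correlated at 0.25, 0.09 and 0.16. Nothing else states how separate the cultures were. Of the probe sets, 34945 had 1 symbol in the platform table, 932 several and 9160 none. A gene was represented by its brightest 1-symbol probe set; of 92 named genes 50 had several, and 11 called genes had another of opposite sign, none of which was called.

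Members and gene lists were chosen with earlier results of these data known. Named were the 10 highest and 10 lowest called genes without overlap between pools, from each list the 3 called members farthest from 0 (where under 2 were called, the highest-signal members to make 2), and 8 fixed genes, of which Gapdh had no tested 1-symbol probe set. Other list members in the text were chosen after their values were seen. Lists can share genes. The number of arrays limits the precision. Alternatives changed the offset, filter, spread model, normalization, probe sets, pairing and cultures.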

Additional observations from a re-analysis of the deposited data

How the results depend on the processing

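Relative to all probe sets, the main counts were 773 higher and 954 lower. No offset and no filter on low values gave 0 and 0 each. A robust and trended spread gave 1647 and 1631, and median centring 468 and 2362; 1328 of the 1727 calls held there. Leaving out 1 culture gave 0 to 514 higher and 0 to 684 lower, with 0 without culture 3. Dropping the lowest 60%, testing 1 probe set per gene and normalizing before the offset kept both counts within 1.5 times. Without the replicate block that pairs the pools, 703 were higher and 817 lower, and 1470 of the calls held. On the deposited scale, 125 were higher and 7221 lower. There, no offset and no filter gave 0 and 0, 1 probe set per gene 75 and 4528, leaving out 1 culture 0 to 78 and 0 to 5936, and no replicate block 1 and 1013. The EB minus ESC difference had 0 calls under the main setting and with a replicate block across states. It had 69 higher and 35 lower calls with the robust and trended spread, and 3311 and 43 under median centring. Of the named genes, 78 were called: 16 lost the call under median centring, 17 without culture 1, 10 without culture 2, and all 78 without culture 3, without the offset or without the filter. Eef1a1 reversed under median centring, from 0.10 to −0.69. The ratio of mean signals ran from 0.537 to 0.627 when 1 culture was left out. The cause of these changes was not tested.

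With 3 pairs of arrays, small differences cannot be called. The summary by protein length was not run, since no protein table was at hand. Pool RNA yields were not used here, so array signals need not equal amounts of mRNA in the gradient. No group had enough samples for a check of single outlying arrays.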
